A study of Mus musculus with 4 samples.

Results

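The SNARE membrane fusion machinery was taken as 42 named genes: syntaxins, VAMPs, SNAP-23-like proteins, Golgi SNAREs, the ATPase NSF with its adaptors, and Sec1/Munc18 proteins with related syntaxin binders. Of these, 40 had a row under their symbol in a table of 55401 genes and all 40 had enough reads to be tested, while Vamp7 and Stx10 were not analysed here. The set was drawn up around Napg, the gene of gamma-SNAP, because its level was lower in the knockout macrophages. The level of Napg between genotypes is therefore given as a description with no test. The other 39 genes came in by family, with earlier results of these data known, and the question asked of them was whether the fall of Napg was shared.

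Gene expression was measured by RNA sequencing of poly(A) RNA from macrophages grown from the bone marrow of C57BL/6 mice, 8 weeks old, with the growth factor M-CSF. All 4 cultures had shared their dish with MC38 tumour cells, a line from mouse colon carcinoma, for 24 h, so that no library represents macrophages without tumour cells. The 2 control libraries, numbered 1 and 3 in their titles, came from Mettl3fl/fl mice, in which the m6A methyltransferase gene Mettl3 is flanked by loxP sites but not cut. The 2 knockout libraries, also numbered 1 and 3, came from LysM-cre, Mettl3fl/fl mice, in which the Cre recombinase is driven by the lysozyme M promoter of myeloid cells. The series describes its libraries as replicates of mice without saying what a number stands for (a litter, a day) or whether animals were pooled.

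Total counts ran from 55100415 to 79209870 per library. Mettl3 itself stood at 18.3 (control 1) and 23.2 (control 3) against 13.9 (knockout 1) and 19.6 (knockout 3) CPM, counts per scaled library size. Its groups overlapped. Within each library number Mettl3 was lower in the knockout, as were 27.2% of all tested genes. Reads over all exons of Mettl3 do not show whether the loxP-flanked part was cut and so check no label. Xist was at 0.589 CPM in control 1 and 0.624 in knockout 1 against 1351 in control 3 and 1162 in knockout 3, while the Y-linked Ddx3y ran the other way, so library number and the pattern of sex coincide. All 10 macrophage markers were present in each library, with summed levels of 42786 to 59440 CPM. Of 12 epithelial markers, 7 (Epcam, Krt8, Krt18, Krt20, Cldn4, Cldn3 and Cdx2) were at 0 in all 4 libraries, and the sum of the 12 was 0.994 to 1.97 CPM.

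SNARE proteins sit on vesicles and on their target membranes and zip together into a bundle that pulls the membranes into contact. A fusing bundle holds a helix of each of the classes Qa, Qb, Qc and R. Most syntaxins are Qa, but Stx6 and Stx8 are Qc. VAMPs, Sec22b and Ykt6 are R, and SNAP-23-like proteins give both Qb and Qc. Sec1/Munc18 proteins clasp syntaxins and guide assembly. After fusion the ATPase NSF, docked through adaptors called SNAPs (alpha from Napa, beta from Napb, gamma from Napg), pulls the spent bundle apart so that the SNAREs can be used again. In macrophages these routes carry cytokine secretion, delivery of membrane to the phagocytic cup, and the fusion of endosomes and phagosomes with lysosomes.

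The disassembly genes held the one large difference of the set. Napg (ENSMUSG00000024581, chromosome 18, 62977831 to 62999450, plus strand) had 63.6 CPM in control 1 and 66.4 in control 3, but 26.0 in knockout 1 and 21.7 in knockout 3. Both knockouts lay below both controls, and the controls differed from each other by less than the knockouts lay below them. In FPKM, which is scaled for gene length as well, its mean was 6.82 ± 0.326 (SD, n = 2) in controls and 2.48 ± 0.337 (SD, n = 2) in knockouts. The log2 fold change was -1.45, a level 2.72-fold lower in the knockouts, with -1.29 within number 1 and -1.61 within number 3. No other gene of the table overlaps Napg, so its reads are not shared with a neighbour by position. The count behind it was 3452 and 4109 in the controls and 1627 and 1715 in the knockouts.

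Napa (ENSMUSG00000006024, chromosome 7, 16098458 to 16117975, plus strand), the general adaptor of NSF, measured 105.6 and 120.7 CPM in the controls against 103.7 and 104.2 in the knockouts. The groups did not overlap, but control 1 and the knockouts were nearly level. Its log2 fold change was -0.12 (95% interval -0.52 to 0.28; edgeR's quasi-likelihood test, unadjusted p = 0.458). It was -0.02 without control 3 and -0.21 without control 1. Napb, the beta form known mainly from brain, was the lowest of the 40 genes per length, at 0.393 and 0.380 FPKM in the controls and 0.392 and 0.248 in the knockouts. Its counts were 170 and 183 against 193 and 156, which left a wide interval of -1.32 to 0.78 around a log2 fold change of -0.27. Nsf, the ATPase itself, measured 89.5 and 72.7 CPM in the controls against 93.7 and 77.2 in the knockouts. The groups overlapped, and the log2 fold change of Nsf was 0.08 (95% interval -0.44 to 0.59; edgeR's quasi-likelihood test, unadjusted p = 0.714).

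The make-up of the adaptor pool followed from these values. Napa was 3.77 and 4.12 times as abundant as Napg per length in the controls, and 9.06 and 10.9 times in the knockouts. Napg made up 20.7% and 19.3% of the summed FPKM of the 3 adaptors in the controls and 9.80% and 8.30% in the knockouts. That sum was 31.8 and 36.5 FPKM in the controls and 27.8 and 27.0 FPKM in the knockouts. In bulk RNA, less RNA per cell and fewer cells with the RNA cannot be told apart.

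**Figure D1:**
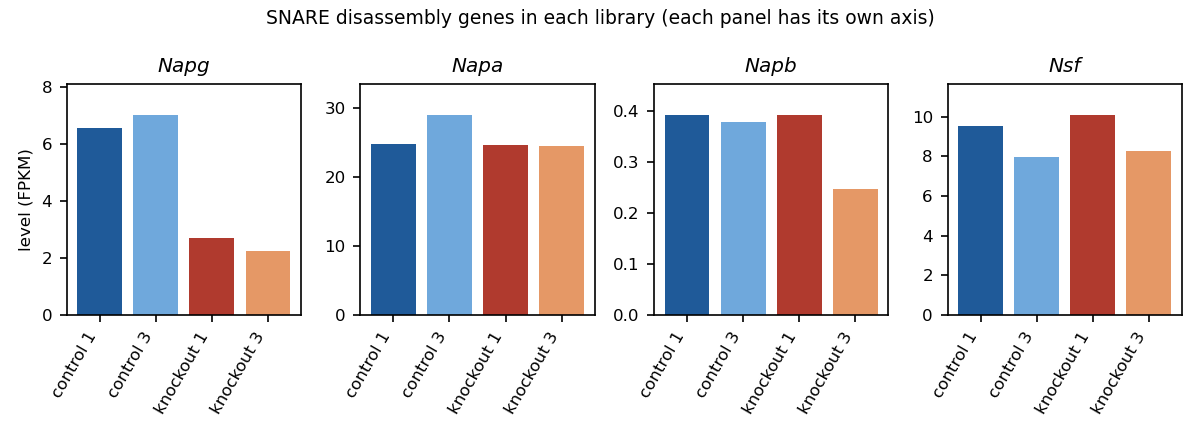
Bars give the level in FPKM (vertical axes, from 0, one scale per panel) of Napg, Napa, Napb and Nsf in each of the 4 libraries. Napg stands near 7 in both controls and at 2.72 and 2.25 in the knockouts. Nsf is at 9.55 and 10.1 in number 1 and at 7.94 and 8.25 in number 3 (edgeR between numbers, unadjusted p = 0.0660).

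Markers of some other cells also differed between the genotypes. All 10 fibroblast markers were lower in the knockout within both numbers, with sums of 444.1 and 893.1 CPM in controls 1 and 3 against 350.2 and 571.8 in knockouts 1 and 3, and none of them was at 0 in all 4 libraries. Of 10 erythroid and megakaryocyte markers, 8 were lower within both numbers, with sums of 599.6 and 674.9 CPM in the controls and 380.7 and 366.1 CPM in the knockouts, mostly Pf4. Some of these markers were low, such as Hbb-bs (at most 2.95 CPM) and Lum (at most 0.755 CPM). Over all tested genes, 27.2% were below 0 within both numbers. In other lists, 2 of 10 macrophage, 2 of 10 neutrophil, 1 of 6 B cell and 1 of 7 dendritic cell markers were lower. For T and NK cells it was 0 of 10, and for mast cells and basophils 0 of 7. Apart from the macrophage list, these lists held markers with too few reads to be tested, which had little room to be lower. Tested were 4 neutrophil, 3 B cell, 5 dendritic cell, 3 T and NK cell and 1 mast cell and basophil markers. All 10 fibroblast and 7 of the 10 erythroid and megakaryocyte markers were tested. The part of the fibroblast, erythroid and megakaryocyte markers in the level of Napg was not tested.

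The fall was not seen in the rest of the machinery. Over the 39 members other than Napg, edgeR called 0 at an adjusted p under 0.05, as it did over all 17260 genes tested (0%), and 0 of the 39 had an unadjusted p under 0.05, against 2.27% of all tested genes. DESeq2, run beside it, called 0 of the 39, against 0.295% of the genes it tested, and with the replicate block it again called 0, against 0.698%. The median log2 fold change of the 39 was 0.015, beside -0.0013 over all tested genes, with 20 above 0 and 19 below. Their fold changes ran from -0.33 for Stx5a to 0.61 for Vamp5, and their median size regardless of sign was 0.16, against 0.20 over all tested genes.

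The intervals bound what could have been missed. For all 39 members the lower end of the 95% interval lay above the -1.45 of Napg, the lowest being -1.32 for Napb and -1.30 for Stx2. The value of Napg chose the set and is itself an estimate, with an interval of -1.92 to -0.976. The intervals of Napb and Stx2 overlapped that of Napg. For 34 of the 39 (87.2%) the whole interval lay within 2-fold in either direction, against 42.9% of all tested genes. The exceptions were Napb, Stx2, Vamp5, Stx6 and Stx18. All 39 intervals included 0. The knockouts were both lower than either control for 6 of the 39 (15.4%), where 13.4% of all tested genes did, and above them for 9 (23.1%), where 13.1% did. Differences within these intervals were not detectable with 2 libraries a group. Genotype was the only term of this fit, so differences between the library numbers counted as error. Stx2, for example, differed by -0.12 within number 1 and -0.22 within number 3, with a standard error of 0.43 for the genotype.

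**Figure D2:**
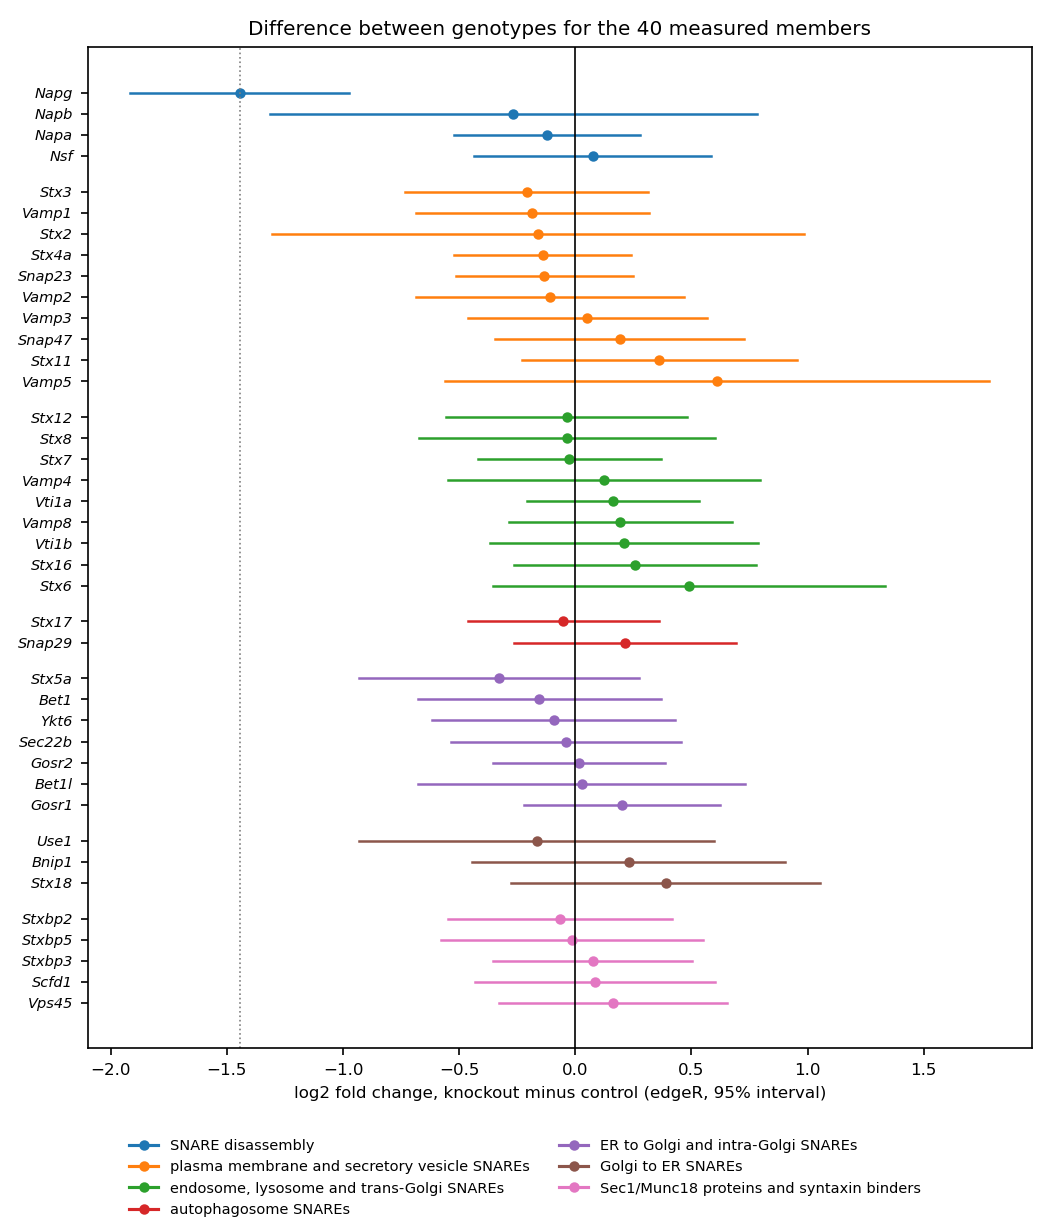
Points give the log2 fold change (horizontal axis, knockout minus control) of each of the 40 measured genes and lines its 95% interval from edgeR, coloured by role, with 0 as a solid line and the value of Napg as a dotted one. Napg lies far to the left of the rest, and the lower end of the interval of each other gene lies to the right of the dotted line.

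The SNAREs of the plasma membrane and of secretory vesicles carry cytokine release and membrane delivery during phagocytosis. All 10 were tested. Their median log2 fold change was -0.12, with a lowest unadjusted p of 0.171 (edgeR). Vamp3 (cellubrevin, an R-SNARE of recycling endosomes) and Stx4a (the mouse gene for syntaxin 4, the surface Qa-SNARE) were the most abundant per length. Vamp3 measured 100.2 and 123.8 CPM in controls 1 and 3 against 127.4 and 104.6 in knockouts 1 and 3, and its difference had opposite signs, 0.35 within number 1 and -0.24 within number 3. Stx4a measured 77.2 and 84.3 CPM in the controls against 72.7 and 73.8 in the knockouts. Its groups did not overlap, with a log2 fold change of -0.14 (95% interval -0.52 to 0.24).

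Snap23, the partner that gives 2 of the helices to surface fusion, behaved much like Stx4a, at 145.7 and 138.9 CPM in the controls against 134.3 and 125.2 in the knockouts. Stx11, a syntaxin without a membrane-spanning segment that acts in secretion by immune cells, had the lowest unadjusted p of the 39. It measured 11.6 and 11.3 CPM in the controls against 13.3 and 16.1 in the knockouts, so both knockouts were higher. The fitted log2 value was 0.36 ± 0.22 (SE, 2 libraries a group), with an adjusted p of 1.00 by edgeR, and was 0.22 without knockout 3. Vamp5, an R-SNARE best known from muscle, had the highest fold change of the set at 0.61, but rested on counts of 112 and 91 in the controls and 205 and 167 in the knockouts. Its interval ran from -0.56 to 1.78, and its fold change was 0.27 without knockout 1, below those of Stx6 (0.86) and Stx18 (0.60) in the same fit. It was 0.39 without control 3. Stx3, a Qa-SNARE of apical and granule membranes, measured 38.8 and 39.5 CPM in the controls against 29.6 and 38.1 in the knockouts, so that knockout 1 alone stood clearly lower. Its log2 fold change of -0.21 was -0.02 without knockout 1 and -0.41 without knockout 3. Vamp1 lay lower in both knockouts (log2 fold change -0.18) and Snap47 higher (0.19), while Vamp2 (-0.11) and Stx2 (-0.16) had groups that overlapped. Vamp1 overlaps Tapbpl on the opposite strand, which had a mean of 7.33 FPKM against 1.71 for Vamp1. Whether the counting used the strand is not given, so the value of Vamp1 is uncertain.

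The SNAREs of endosomes, lysosomes and the trans-Golgi, which bring endocytosed and phagocytosed material to lysosomes, were the other large class. Of its 11 members 9 were measured. Their median log2 fold change was 0.16, and 0 of the 9 had both knockouts below both controls while 3 (Stx6, Stx16 and Vti1a) had both above, beside 13.4% and 13.1% of all tested genes. Stx12, also called syntaxin 13 and found on recycling endosomes, was the most abundant member of the whole set at a mean of 40.5 FPKM. Stx12 was at 130.7 and 127.0 CPM in control 1 and knockout 1 and at 160.2 and 156.5 CPM in control 3 and knockout 3. The difference between numbers did not pass the test (edgeR, unadjusted p = 0.0587). Stx7, the Qa-SNARE of late endosomes, was among the steadiest, at 194.9 and 186.0 CPM in the controls against 194.7 and 179.3 in the knockouts.

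Stx6, a Qc-SNARE of the trans-Golgi and endosomes, measured 22.5 and 22.2 CPM in the controls against 22.7 and 40.01 in the knockouts. Knockout 3 alone set it apart: the log2 fold change of 0.49 became 0.019 when that library was left out, and 0.86 without knockout 1. Stx16, a Qa-SNARE of transport from endosomes to the trans-Golgi, measured 83.7 and 62.4 CPM in the controls against 88.7 and 85.9 in the knockouts, where control 3 was the low one. Its log2 fold change of 0.26 was 0.064 without control 3 and 0.49 without control 1. Vti1a, a Qb-SNARE of the same route, measured 134.6 and 139.8 CPM in the controls against 152.8 and 153.9 in the knockouts, with similar differences of 0.18 and 0.14 within the numbers. Vamp8, the R-SNARE of late endosomes, had a log2 fold change of 0.19, with 106.4 CPM in knockout 3 and 79.8 to 86.9 CPM in the other libraries. Vti1b overlaps Arg2 on the opposite strand, which had a similar level (32.9 against 32.8 FPKM). The preparation marks strand, but the sources used here do not say whether the counting used it, so the values of Vti1b (45.5 and 63.7 CPM in the controls, 65.9 and 60.2 in the knockouts) are uncertain. Stx8 (-0.04) and Vamp4 (0.12) overlapped between genotypes.

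Within the late endosomal bundle of Stx7, Vti1b, Stx8 and Vamp8 the levels per length were unequal. Stx8, the Qc member, stood between 2.75 and 3.69 FPKM over the 4 libraries, while the other members stood between 25.1 and 41.1 FPKM. Stx8 was thus the lowest of the 4 in each library, in both genotypes.

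The autophagosome pair, Stx17 and Snap29, joins with Vamp8 to fuse autophagosomes to lysosomes. Stx17 measured 45.2 and 41.6 CPM in the controls against 41.4 and 42.4 in the knockouts, a log2 fold change of -0.05 (95% interval -0.46 to 0.36). Snap29 measured 90.8 and 75.5 CPM in the controls against 104.1 and 88.5 in the knockouts. It was higher in the knockout by 0.20 within number 1 and 0.23 within number 3, but the groups overlapped and its interval ran from -0.27 to 0.69.

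Between the endoplasmic reticulum and the Golgi, and within the Golgi, all 7 members were measured, and the whole interval of each lay within 2-fold either way. The median log2 fold change was -0.04. Gosr2 (membrin, a Qb-SNARE) was the most abundant, at 120.9 and 125.6 CPM in the controls against 122.2 and 126.8 in the knockouts, and its log2 fold change was 0.01 (95% interval -0.35 to 0.38). Ykt6, a lipid-anchored R-SNARE, measured 91.8 and 122.1 CPM in the controls against 96.1 and 104.3 in the knockouts. Stx5a, the Qa-SNARE of the early Golgi, had the lowest fold change after Napg. It measured 46.1 and 32.6 CPM in the controls against 31.4 and 31.4 in the knockouts, so control 1 stood apart from the other 3 libraries. Its log2 fold change of -0.33 was -0.05 without control 1 and -0.55 without control 3. Gosr1 measured 57.3 and 65.2 CPM in the controls against 66.9 and 73.9 in the knockouts (log2 fold change 0.20, but 0.12 without control 1 and 0.13 without knockout 3). Bet1, Bet1l and Sec22b overlapped between the genotypes, with log2 fold changes of -0.16, 0.03 and -0.04.

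The SNAREs that receive vesicles returning from the Golgi to the endoplasmic reticulum are Stx18, Use1 and Bnip1. Stx18 measured 11.7 and 13.5 CPM in the controls against 14.1 and 18.9 in the knockouts, with a log2 fold change of 0.39 (95% interval -0.28 to 1.05). Without knockout 3 it was 0.16 and without knockout 1 it was 0.60. Use1 measured 57.6 and 44.6 CPM in the controls against 55.7 and 35.3 in the knockouts, again lower in number 3 than in number 1. Bnip1 had a log2 fold change of 0.23 with overlapping groups.

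Of the Sec1/Munc18 proteins and syntaxin binders, Stxbp2 (Munc18-2, the partner of Stx11 in secretion by immune cells) was the most abundant. It measured 204.1 and 172.6 CPM in the controls against 195.2 and 164.5 in the knockouts, a log2 fold change of -0.07. Stxbp3 (Munc18c, the partner of syntaxin 4) measured 140.01 and 117.0 CPM in the controls against 135.3 and 135.4 in the knockouts. Vps45, which binds Stx16, measured 19.0 and 18.9 CPM in the controls against 22.2 and 20.3 in the knockouts, both knockouts being higher by less than the test's error (log2 fold change 0.16 ± 0.19, SE). Scfd1, the Sly1 protein of the early Golgi, had a log2 fold change of 0.08 and Stxbp5 (tomosyn, which competes with VAMPs) one of -0.01.

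**Figure D3:**
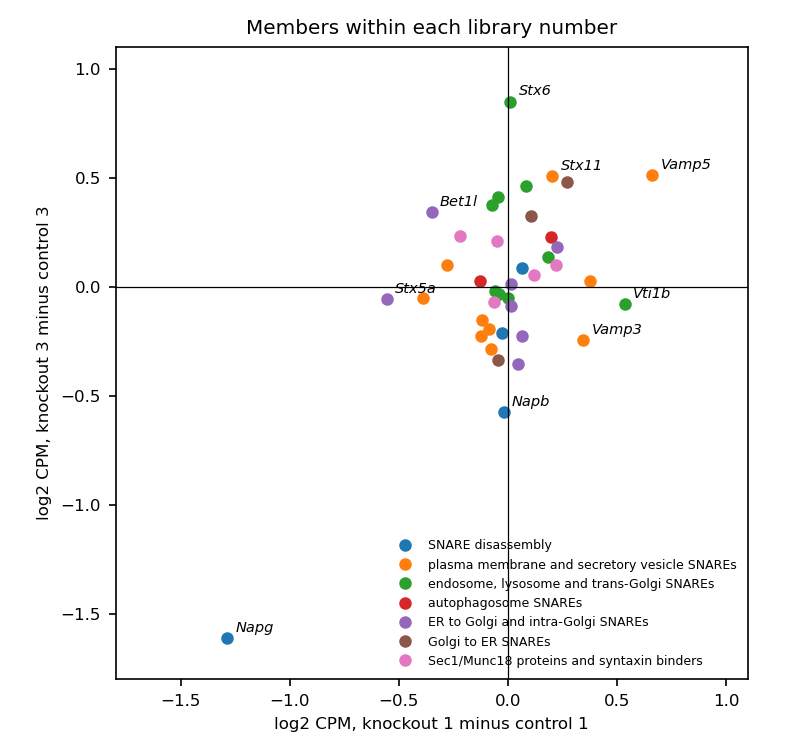
Each point is one of the 40 genes, with the difference in log2 CPM between knockout 1 and control 1 on the horizontal axis and between knockout 3 and control 3 on the vertical axis, coloured by role. Napg lies at -1.29 and -1.61, away from the other 39, which lie between -0.56 and 0.66 on the first axis and between -0.58 and 0.85 on the second.

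Read within each library number, the genotype difference was below 0 in both numbers for 13 of the 39 (33.3%), where 27.2% of all tested genes were, and above 0 in both for 14 (35.9%), where 25.8% were. The remaining 12 had opposite signs. The median of the 39 was -0.0012 within number 1 and 0.026 within number 3.

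Per length, the macrophages held most of the machinery at moderate levels. Of the 40 genes, 14 had a mean of at least 20 FPKM, 14 lay between 5 and 20, 10 between 1 and 5, and 2 (Vamp5 and Napb) under 1. The median member stood at 10.5 FPKM, beside 2.69 over all tested genes. The highest were Stx12 (40.5), Stxbp2 (39.8), Stx7 (37.9), Vamp3 (35.5), Vamp8 (34.7), Gosr2 (34.1), Vti1b (32.8) and Ykt6 (31.2 FPKM), and their order changed from library to library, so neighbours among them did not differ beyond their spread. Napg ranked 27th and 24th of the 40 in the controls and 34th and 37th in the knockouts. Of the 2 ends of the list, Napb held the last place in each library and Vamp5 the place before it.

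**Figure D4:**
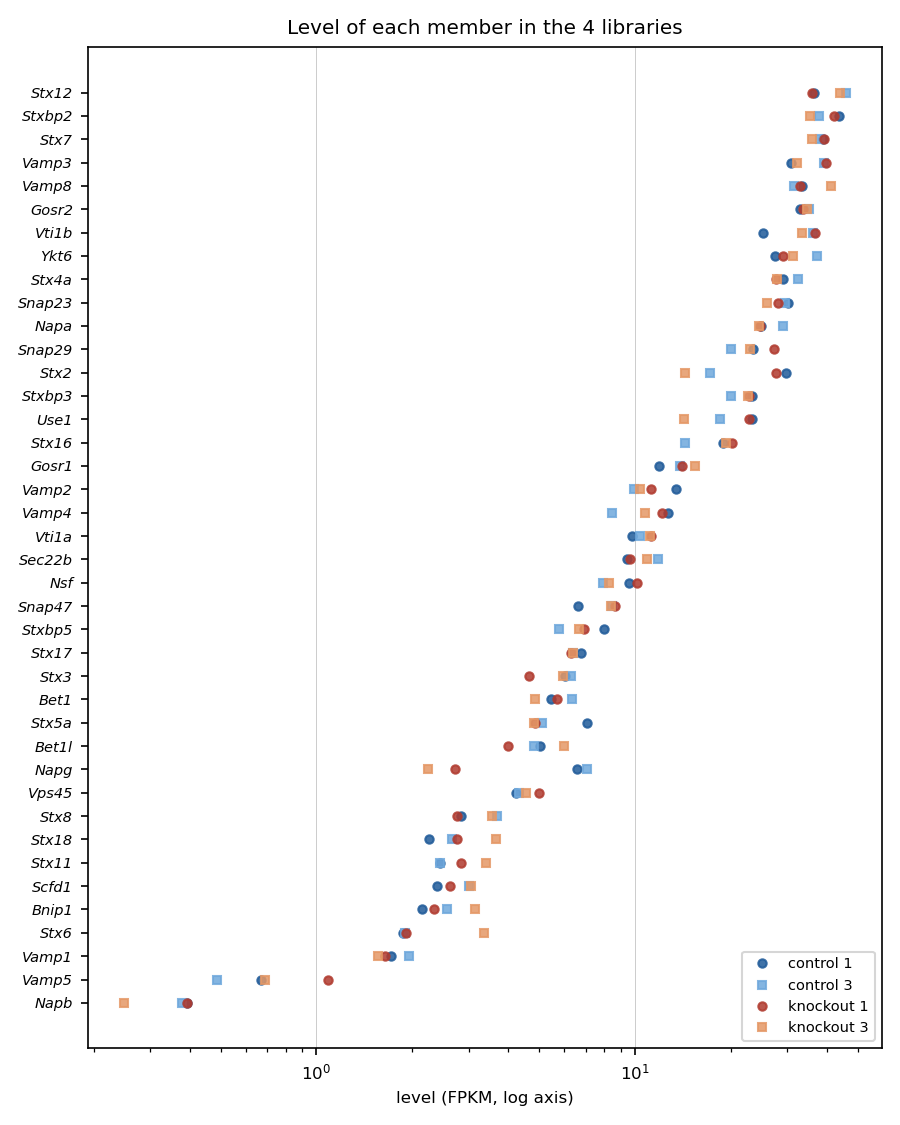
Points give the level of each of the 40 genes in FPKM (horizontal log axis) in controls 1 and 3 (blue) and knockouts 1 and 3 (red and orange), ordered by mean, with circles for number 1 and squares for number 3. The genotypes overlap in 24 of the 40 rows, both knockouts lie far to the left in the row of Napg, and in the row of Stx2 the squares lie to the left of the circles.

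The other label that differed was the library number, which coincides with the pattern of sex, and the members had not been chosen on it. Compared between numbers with genotype in the model, edgeR called 0 of the 40 members at an adjusted p under 0.05, against 0.707% of all tested genes, and 2 (Stx2 and Use1) had an unadjusted p under 0.05, against 17.6%. DESeq2 called 1 member, Stx2, against 4.92% of the genes it tested. Stx2 (syntaxin 2, a Qa-SNARE of the cell surface, ENSMUSG00000029428, chromosome 5, 128984557 to 129008574, minus strand) measured 153.4 CPM in control 1 and 140.8 in knockout 1 against 86.2 in control 3 and 73.8 in knockout 3. Both libraries numbered 3 lay below both numbered 1. The log2 difference, number 3 minus number 1, was -0.88 ± 0.12 (SE; edgeR, unadjusted p = 0.00143, adjusted p = 0.0750; DESeq2, adjusted p = 3.82e-04). Use1 had a log2 difference of -0.51 ± 0.14 (SE; edgeR, unadjusted p = 0.0203, adjusted p = 0.203).

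Other markers moved with the library number too. The 10 fibroblast markers summed to 444.1 and 350.2 CPM in the libraries numbered 1 and to 893.1 and 571.8 CPM in those numbered 3, with 8 of the 10 higher in number 3 in both genotypes. The 10 neutrophil markers summed to 331.6 and 277.7 CPM in number 1 and to 142.4 and 107.0 CPM in number 3. The lower sum was that of Mmp8 alone, whereas 4 of the 10, S100a8 among them, were higher in number 3 in both genotypes, and Ly6g, Retnlg and Cxcr2 were at 0. Their part in the level of Stx2 was not tested, and sex and any other difference between the numbers cannot be told apart.

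Factors that act before or beside SNAREs were examined in the same fit, as 10 further lists, of which 104 genes were tested and 11 had too few reads. EdgeR called 0 of them between genotypes (0% of all tested genes), DESeq2 called 0 (0.295% of the genes it tested), and 0 had an unadjusted p under 0.05, against 2.27% of all tested genes. Their median log2 fold change was 0.027, with both knockouts below both controls for 12 (11.5%, beside 13.4% of all tested genes) and above them for 14 (13.5%, beside 13.1%). For 93 of the 104 the lower end of the interval lay above the value of Napg. The 11 others were mostly genes near the limit of detection, besides Tgfbrap1 (-0.30) and Trappc6a (-0.44), which had wide intervals at several FPKM.

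The tethers that hold vesicles before fusion stood close to 0 as lists. The HOPS and CORVET tethers of endosomes and lysosomes (10 tested) had a median log2 fold change of 0.039, the exocyst of the cell surface (9 tested) 0.031, the COG complex of the Golgi (8 tested) -0.026 and the GARP and EARP tethers (5 tested) -0.023. The TRAPP complexes (14 tested) had a median of 0.030, the golgins and related tethers (10 tested) 0.030 and the NRZ tether of the endoplasmic reticulum (3 tested) 0.12. Examples with groups that did not overlap were Vps51, a GARP and EARP subunit, at 39.9 and 38.0 CPM in the controls against 34.4 and 32.8 in the knockouts, and Gorasp1, a Golgi stacking protein, at 19.1 and 18.7 against 23.2 and 24.1 CPM. Trappc13 measured 33.9 and 33.8 CPM in the controls against 39.1 and 42.8 in the knockouts. Trappc3, of the same complexes, was at 56.7 and 60.2 CPM in the controls against 65.3 and 68.0 in the knockouts. Vipas39, which works with Vps33b, had 91.6 and 84.8 CPM in the controls against 100.03 and 99.6 in the knockouts. Of the exocyst, Exoc1 had 77.4 and 71.5 CPM in the controls against 80.5 and 97.7 in the knockouts, and Exoc7 the opposite order, 38.5 and 41.7 CPM in the controls against 35.03 and 34.7 in the knockouts. Cog8 had 27.9 and 26.4 CPM in the controls against 19.5 and 24.9 in the knockouts, and Rint1 of the NRZ tether 11.2 and 10.1 CPM in the controls against 11.2 and 11.9 in the knockouts. None of these passed the test, the unadjusted p by edgeR being 0.241 for Vps51, 0.138 for Gorasp1 and 0.156 for Trappc13.

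Rab GTPases mark membranes and recruit tethers, and the 27 tested had a median log2 fold change of 0.056. Rab7, the Rab of late endosomes and lysosomes, measured 610.5 and 668.7 CPM in the controls against 567.1 and 502.6 in the knockouts. Both knockouts were lower, with a fitted log2 difference of -0.26 ± 0.17 (SE, 2 libraries a group) and an adjusted p of 1.00 by edgeR. Rab11b, of recycling endosomes, measured 86.7 and 61.2 CPM in the controls against 101.8 and 91.4 in the knockouts, a log2 fold change of 0.39 ± 0.22 (SE; edgeR, adjusted p = 1.00). It was 0.16 without control 3 and 0.66 without control 1. Among SNAREs and Sec1/Munc18 proteins outside the set, 8 of 11 were tested, with a median of -0.01, and Stxbp4 and Scfd2 had log2 fold changes of -0.22 and 0.19.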

How the data were processed

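The authors deposited 1 table with, per the file headers, an estimated count and an FPKM value for each gene and library. The estimated counts were whole numbers, not normalized, as deposited. The deposited FPKM values were scaled by the authors for gene length and library size. Cutadapt 1.9, HISAT2 2.0.4, StringTie 1.3.4d, edgeR and DESeq2 are named in the submitters' processing notes. The genome build, and whether counting used the strand, are not given in the sources used here. All 40 gene identifiers of the members are in GENCODE M21, 31 with the same start, end and strand, and coordinates are those of the table. The table holds 4 more value columns named after no single sample, which were left unused.

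Counts were tested over all genes in edgeR 4.0.16 under R 4.3.3 (two-sided quasi-likelihood test, TMM, filterByExpr, Benjamini-Hochberg, threshold 0.05), with genotype as the only term. Intervals and standard errors come from the same fit. CPM uses the TMM-scaled library sizes. Within-number differences compare log2 CPM (prior count 2). Of the counts from 1 to 40, 36.0% to 37.0% per library were multiples of 4, so what 1 read pair adds is not known, and 12 counts correspond to 0.152 to 0.221 CPM. Such floors and all intervals cover counting and library error only. DESeq2 1.42.0, limma 3.58.1 on log2(FPKM + 1) and log2(FPKM + 0.1), other scalings, no filter, counts divided by 4, a fit with a replicate block, and fits without each library, were the alternatives. The tests were tried on simulated counts.

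The members and lists were chosen with earlier results of these data known. Named with values in each library were Napg, Napa, Napb and Nsf, and in each role the 2 members highest in FPKM. Up to 3 members per role with groups that did not overlap, by smallest unadjusted p, and any called by DESeq2 were named as well. Of the other lists up to 2 genes were taken by the same rule. Further members are given by their fold change, and Snap23, Vamp8 and Vti1b were given in full after their values were seen. No protein sequences were used here.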

Additional observations from a re-analysis of the deposited data

Results flagged for a closer look

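Bet1l, a Qc-SNARE of the Golgi, differed in opposite directions in the 2 library numbers, each by more than 0.3 on the log2 scale. It was at 22.4 CPM in control 1 and 17.5 CPM in knockout 1, a difference of -0.35. It was at 20.9 CPM in control 3 and 26.5 CPM in knockout 3, a difference of 0.34. With 1 library per genotype and number, the difference between the numbers was not tested. Bet1l overlaps Ric8a on the opposite strand, which had a mean of 8.46 FPKM against 4.95 for Bet1l.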

How the results depend on the processing

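Of the 39 members other than Napg, and of the other fusion genes, 0 were called between genotypes by edgeR. The same held under each alternative run on all 4 libraries, DESeq2 and limma included. EdgeR called 0 of all 17260 tested genes, so its 0 calls cannot tell a shared fall from none. What the numbers in the titles stand for is not given, but same-numbered libraries shared the pattern of sex. They also deviated together (r = 0.42 across genes for the single comparison that 2 pairs allow). With the replicate block edgeR and DESeq2 still called 0 of the 39. Over all genes, DESeq2 called 175 with the block and 74 without it. The log2 fold change of Napg was between -1.57 and -1.32 with any 1 library left out and -1.17 by limma on log2(FPKM + 1). The median of the other 39 was -0.0010 with upper quartile scaling, -0.0036 on log2(FPKM + 1) and -0.0020 on log2(FPKM + 0.1), -0.0012 within number 1, 0.026 within number 3, and 0.019 to 0.058 with 1 library left out. The count of members with the knockouts below the controls was 10 to 16 with 1 library left out, when 30.7% to 33.3% of all tested genes met the same condition. Between library numbers, 1 member (Stx2) was called by DESeq2 and 1 with counts divided by 4 (edgeR adjusted p = 0.0480). Of the 10 members highest in FPKM, 6 were also among the 10 highest in CPM, which does not divide by length. Members near 0 changed sign: Gosr2 was -0.0010 with upper quartile scaling, and within a number Vamp3 was -0.24, Stx17 0.027, Ykt6 0.067 and Stxbp3 -0.050. With 1 library left out the fold change ran from -0.61 to 0.021 for Napb, from -0.064 to 0.24 for Nsf, from -0.087 to 0.21 for Vamp3, from -0.20 to 0.12 for Stx12, from -0.070 to 0.032 for Stx7, from -0.11 to 0.017 for Stx17, from -0.012 to 0.058 for Gosr2, from -0.28 to 0.13 for Ykt6, from -0.52 to 0.13 for Use1, from -0.18 to 0.066 for Stxbp2, from -0.045 to 0.22 for Stxbp3 and from -0.68 to 0.32 for Stx2. Leaving out 1 library mixes number with genotype, and the single library left in a group is taken to vary as much as the pair.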

Other observations

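The fast, calcium-triggered fusion factors of neurons were examined as a contrast to the general machinery. Snap25, Syt1 and Cplx1 were at 0 in all 4 libraries. Of 18 priming factors and calcium sensors 10 were tested, with a median log2 fold change of -0.20 between genotypes. EdgeR called 0 of the 10, against 0% of all tested genes, and DESeq2 0, against 0.295% of the genes it tested. Unc13a measured 5.67 and 5.57 CPM in the controls against 7.77 and 6.52 in the knockouts, and Syt7 at 0.258 and 0.420 against 0.592 and 0.708 CPM.

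Cplx2, a complexin that clamps SNARE bundles before release, was chosen after its values were seen. It stood at 6.06 and 5.85 CPM in control 1 and knockout 1 and at 0.694 and 0.733 CPM in control 3 and knockout 3, so it followed the library number and not the genotype. The log2 difference, number 3 minus number 1, was -3.06 (DESeq2, adjusted p = 9.42e-07; edgeR, adjusted p = 0.0526).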
